A study of Mus musculus with 12 samples.

Results

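Mitochondrial ribosomal protein genes were followed in cortex from C57BL/6 mice that were wildtype (WT), carried 1 intact copy of Mir137 (Het, genotype miR-137/+) or had none (KO, genotype miR-137 KO). Mir137 encodes miR-137, a microRNA abundant in brain. Members were chosen by symbol, Mrpl or Mrps followed by a number and an optional a, b or c, with at least 1 RPKM (reads scaled to transcript length and library size) in any genotype. All 77 genes with such a symbol, of 23951 rows per table, met that minimum, 48 with an Mrpl and 29 with an Mrps symbol. The lowest stood at 5.59 RPKM in WT, so no gene lay near the limit. Each genotype had 4 libraries, 12 in all, but the authors' deposited tables hold 1 pooled RPKM value per genotype, with a p and a q (the p adjusted for the number of genes) per gene and pair of genotypes. No value per library, SD or depth can therefore be given. The sources used here give neither age nor sex, nor how the allele was made. Library titles carry nested numbers (1-1, 1-2, 2-1 and 2-2 in each genotype) and the protocol speaks of duplicated samples, so a genotype may hold 2 samples with 2 libraries each, and neither is said to be an animal. Any spread between replicates that enters the authors' p-values is therefore that between libraries, which may be technical. What else enters these p-values is not given in the sources used here.

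Mitochondria translate the few messenger RNAs of their own genome on a dedicated ribosome that sits at the inner membrane and makes core subunits of the respiratory chain and ATP synthase. Its RNAs come from mitochondrial DNA, whereas all of its proteins are encoded in the nucleus, made in the cytosol and imported. Some of these proteins descend from those of bacterial ribosomes and others were added in mitochondria. In neurons the respiratory chain supplies most of the ATP that ion pumping and synaptic transmission consume. The study asked what miR-137 does in neurodevelopment, and the 3 tables compare Het with WT, KO with WT and KO with Het.

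The microRNA that the mice lack is shown first, with the places where the 3′ untranslated regions of these transcripts could pair with it, since microRNAs recognise most of their targets by such pairing. The mature microRNA is given from RefSeq (GRCm38.p6, chr3:118433901-118433923, plus strand), 5′ to 3′, with its seed, bases 2 to 8, in capitals.
mmu-miR-137-3p: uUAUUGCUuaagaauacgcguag

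The longest annotated 3′ untranslated region of each gene (GENCODE M21, GRCm38) was searched for AGCAATA, which pairs with the whole seed, and for GCAATAA, which pairs with all but its last base and ends in A. A match was present in 5 of 77 mitochondrial ribosomal protein genes, 6.49%, against 16.1% of 12391 genes of at least 1 RPKM in KO or WT. The untranslated regions of the members were shorter, with a median of 329 nt against 1230 nt. The 5 genes are shown with 30 bases each and the match in capitals. They lie at chr1:4774992-4775021 (minus strand, Mrpl15, which also held an AGCAATA elsewhere), chr17:12911506-12911535 (minus, Mrpl18), chr1:37898406-37898435 (plus, Mrpl30), chr7:100547385-100547414 (minus, Mrpl48) and chr19:6054043-6054072 (minus, Mrpl49).
Mrpl15: ctaccttaaaaAGCAATAAgtcttgagtgt
Mrpl18: gaaagcttcagAGCAATAAtgtgactgaaa
Mrpl30: actccacagtggGCAATAActgaattattc
Mrpl48: gatagaaattcAGCAATAAgcagttctaat
Mrpl49: tggatgagacaAGCAATAtcttaggttctg

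A gene is called here if its q is below 0.05, and none of these 5 was called in KO against WT by the authors' deposited table. Their median difference of log2(RPKM + 1), the measure of change used throughout, was 0.23 in KO against WT, and that of the other 72 members was 0.16. Mrpl18, with a match of 8 bases, stood at 35.4 RPKM in WT and 42.5 in KO (authors' deposited table, q 0.202). Mrpl30 stood at 82.3 RPKM in WT and 96.7 in KO (authors' deposited table, q 0.249). The 12 members that were called all lacked a match. With 15.6% of all members and 6.72% of all genes called higher in KO, a list of 5 would hold few calls or none.

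In WT cortex the members spanned a 16.9-fold range of levels per length, with a median of 24.6 RPKM, above the median of 11.1 RPKM of the 13655 genes of at least 1 RPKM in KO or WT. Only 6 members lay below 10 RPKM and 12 lay above 50 RPKM. The median was 24.9 RPKM for Mrpl symbols and 24.4 for Mrps symbols. The 10 highest members made up 30.8% of the summed level. At the top were Mrpl20 at 94.4, Mrps21 at 88.9, Mrpl30 at 82.3, Mrpl33 at 81.2 and Mrpl12 at 73.6 RPKM. At the bottom were Mrpl1 at 5.59, Mrpl17 at 5.75, Mrpl19 at 6.81, Mrpl35 at 7.69 and Mrpl57 at 7.97 RPKM. All of these but Mrpl57 encode proteins with a bacterial counterpart, at both ends of the range. With 1 value per genotype, neighbours in this order cannot be told apart.

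The 3 genotypes also differed in marker genes of other cells. Mir137 itself was listed at 0 RPKM in all genotypes and checks no label. Cortical projection neuron markers (6 of 6 found) were all detected, with summed levels of 787 RPKM in WT, 717 in Het and 596 in KO. Striatal projection neuron markers (6 of 6) summed to 41.0, 395 and 411 RPKM, and choroid plexus markers (6 of 6) to 2064, 289 and 87.3. Immature neuron markers (6 of 6) summed to 1185, 1620 and 2030 RPKM, markers of dividing cells (6 of 6) to 55.3, 81.7 and 68.1, and erythroid markers (4 of 7) to 31.5, 88.0 and 36.3. The erythroid sum leaves out called entries named for Hba-a1, Hba-a2, Hbb-b1 and Hbb-bs. These were higher than WT in Het and in KO, and lower in KO than in Het (authors' deposited tables). No marker found was at 0 in WT. The part of these shifts in the results below was not tested. In tissue RNA the number of cells of a type, the RNA per cell and the tissue taken at dissection cannot be told apart.

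Knockout cortex held higher levels of 12 mitochondrial ribosomal protein genes and lower levels of none in the authors' deposited table. The share called higher was 15.6% of the 77 members, against 6.72% of all 14059 genes tested, while 7.68% of all genes were called lower. The rises were modest, from 1.33-fold to 1.54-fold. Over all 77 members the median log2 difference was 0.18 with an interquartile range from 0.06 to 0.32, and 64 members were above 0. For all 13655 genes of at least 1 RPKM the median was 0.01, from -0.16 to 0.17. For the 3566 other genes within the members' interquartile range of transcript length it was 0.08, with 63.1% above 0, and the members' median less that of all genes in this range was 0.10. Summed over members, 2421 RPKM in WT became 2872 in KO, a ratio of 1.19. At an unadjusted p below 0.05 the authors' deposited table held 22 members higher and 0 lower.

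**Figure D1:**
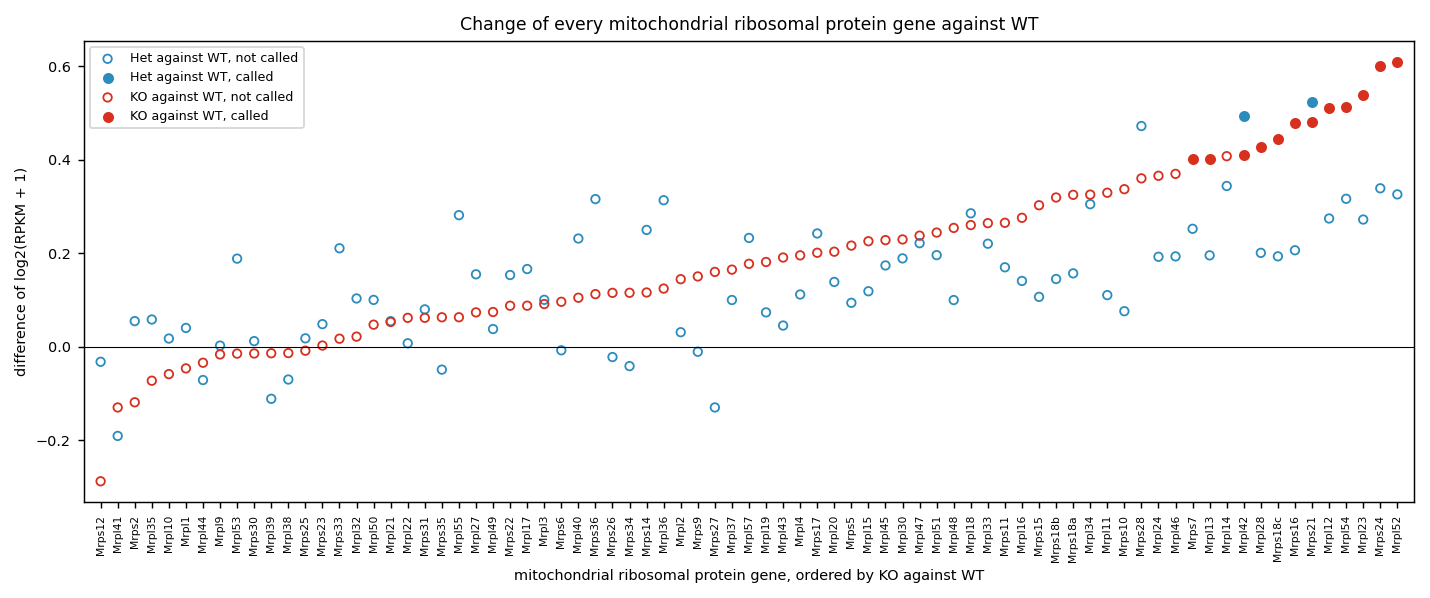
Difference of log2(RPKM + 1) from WT (vertical axis) for each of the 77 genes, ordered along the horizontal axis by KO against WT, with Het in blue and KO in red and filled points for genes with an adjusted p below 0.05. KO values run from -0.29 for Mrps12 to 0.61 for Mrpl52, and filled points, 12 in KO and 2 in Het, all lie above 0.

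Among large subunit proteins with a bacterial counterpart, 4 of 30 rose in KO and none fell, with a median of 0.20. That is 13.3% of the list, beside 6.72% of all genes called higher. Mrpl12 belongs to the flexible stalk that recruits translation factors. It stood at 73.6 RPKM in WT and 105 in KO, 1.43-fold higher (authors' deposited table, q 0.000987, the smallest in that comparison). Its stalk partners Mrpl11 and Mrpl10 were not called: Mrpl11 went from 14.8 to 18.8 RPKM (authors' deposited table, q 0.0558). Mrpl10 stood at 32.5 RPKM in WT and 31.2 in KO (authors' deposited table, q 0.834), and its difference was below 0.

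Mrpl23, at the exit of the tunnel through which the new chain leaves, rose from 47.9 to 70.0 RPKM, 1.46-fold (authors' deposited table, q 0.00446). It was the only gene called among 6 of the exit region, 16.7% beside 6.72% of all genes. That list had a median of 0.23 and also holds the membrane anchor Mrpl45. Mrpl28 rose from 38.8 to 52.5 RPKM (authors' deposited table, q 0.0103). Mrpl13 rose from 41.9 to 55.6 RPKM (authors' deposited table, q 0.0318). Mrpl14, which faces the small subunit, had a similar difference to Mrpl13, 0.41 against 0.40, but went from 20.5 to 27.6 RPKM and was not called (authors' deposited table, q 0.117).

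Of 20 large subunit proteins listed as specific to mitochondria, 3 rose in KO and none fell, with a median of 0.17. That is 15% of the list, beside 6.72% of all genes called higher. Mrpl52 had the largest difference of all members, 0.61, and rose from 69.6 to 107 RPKM (authors' deposited table, q 0.00179). Mrpl54 rose from 31.5 to 45.3 RPKM (authors' deposited table, q 0.0154). Mrpl42 rose from 63.6 to 84.8 RPKM (authors' deposited table, q 0.0214). At the other end of the same class, Mrpl41 stood at 21.5 RPKM in WT and 19.6 in KO (authors' deposited table, q 0.637).

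Small subunit proteins with a bacterial counterpart had the highest median of the 4 classes, 0.28, and 5 of 16 rose, 31.25% beside 6.72% of all genes. Mrps24, the counterpart of bacterial S3 at the messenger RNA entry, rose from 24.05 to 37.0 RPKM, 1.54-fold (authors' deposited table, q 0.000987). Mrps21 rose from 88.9 to 124 RPKM (authors' deposited table, q 0.0158). Mrps16, in the body of the subunit, rose from 45.4 to 63.6 RPKM (authors' deposited table, q 0.0173). Mrps7, in its head, rose from 29.3 to 39.0 RPKM (authors' deposited table, q 0.0236). The 4 genes span WT levels from 24.05 to 88.9 RPKM.

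The same class also held the member with the lowest difference in KO. Mrps12, the counterpart of the bacterial decoding-centre protein that streptomycin contacts, stood at 38.3 RPKM in WT, 37.4 in Het and 31.2 in KO. Its KO difference of -0.29 was not called (authors' deposited table, p 0.0626 and q 0.22). Mrps2 stood at 15.9 RPKM in WT and 14.6 in KO (authors' deposited table, q 0.631). In all, 13 members had a KO difference below 0, and Mrps12 had the smallest p among them.

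The 10 small subunit proteins listed as specific to mitochondria contained no called gene in KO, with a median of 0.08. With 6.72% of all genes called higher, a list of 10 would hold few calls or none. The 1 member at an unadjusted p below 0.05 was Mrps18b, which is itself a relative of bacterial S18, so that its place in this list is debatable. Between the classes of the small subunit the difference was not tested. The class listed as specific to mitochondria had longer transcripts, with a median of 1423.5 nt against 1025.5 nt.

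The S18 family shows members that share an origin in different places of the ribosome. Mrps18c and Mrps18b encode proteins of the small subunit, and Mrps18a encodes one of the large subunit in spite of its name. Mrps18c stood at 57.4 RPKM in WT, 65.7 in Het and 78.3 in KO (authors' deposited table, q for KO 0.0268). Mrps18a stood at 45.3, 50.6 and 57.0 RPKM (authors' deposited table, q for KO 0.0911). Mrps18b stood at 25.1, 27.8 and 31.6 RPKM (authors' deposited table, q for KO 0.116). All 3 were ordered WT, Het, KO, and only Mrps18c was called. Exons of Mrps18c overlap an annotated gene on the same strand, and those of Mrpl12, Mrpl13 and Mrps7 overlap genes on the opposite strand, whose reads cannot be told apart from theirs in libraries that do not mark strand. Mrps36, which carries a ribosomal symbol although its product is a subunit of the 2-oxoglutarate dehydrogenase complex, stood at 32.5 RPKM in WT, 40.7 in Het and 35.2 in KO and was called in no table.

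**Figure D2:**
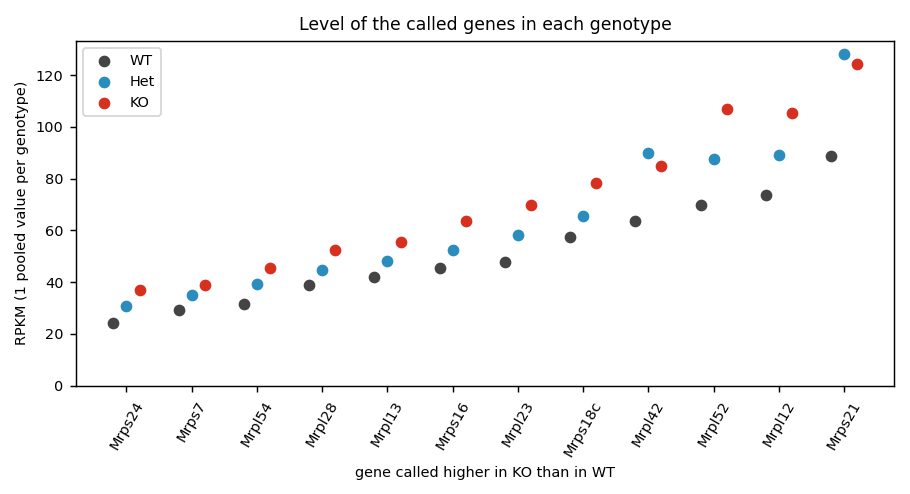
RPKM (vertical axis, 1 pooled value per genotype, no error available) of the 12 genes called higher in KO than in WT, ordered by their WT level, in WT, Het and KO. In all 12 genes WT is the lowest, and in Mrpl42 and Mrps21 the Het value is above the KO value. WT below KO follows from the choice of these genes, and the same WT libraries are the reference for Het.

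Heterozygous cortex showed 2 called members, both higher, in the authors' deposited table. That is 2.60% of the 77 members, near the 3.95% of all 14159 genes called higher, and 5.06% of all genes were called lower. The median log2 difference of the members was 0.14, with an interquartile range from 0.05 to 0.22, and 66 of 77 lay above 0. For all 13738 genes of at least 1 RPKM it was 0.01, from -0.12 to 0.14. For the 3568 other genes within the members' interquartile range of transcript length it was 0.07, with 64.1% above 0, and the members' median less that of all genes in this range was 0.07. At an unadjusted p below 0.05 there were 9 members higher and 0 lower in the authors' deposited table.

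Mrpl42 rose from 63.6 RPKM in WT to 89.8 in Het, 1.41-fold (authors' deposited table, q 0.00244). Mrps21 rose from 88.8 to 128 RPKM, 1.44-fold (authors' deposited table, q 0.0141). Both genes were also called in KO, and the WT values enter both comparisons. Mrps28, a small subunit protein, stood at 13.5 RPKM in WT and 19.1 in Het, 1.42-fold higher, without being called (authors' deposited table, q 0.121). Mrpl14 stood at 20.5 and 26.3 RPKM (authors' deposited table, q 0.304) and Mrps24 at 24.04 and 30.7.

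Values below 0 in Het were small. Mrpl41 had the lowest, at 21.5 RPKM in WT and 18.7 in Het (authors' deposited table, q 0.522). Mrps27, a protein with pentatricopeptide repeats, stood at 15.6 and 14.2 RPKM (authors' deposited table, q 0.717). Mrpl39, Mrpl44 and Mrpl38 had log2 differences of -0.11, -0.07 and -0.07. All 30 large subunit genes with a bacterial counterpart lay above 0 in Het, from 0.00 to 0.34, and none of them was called. Medians of the other classes were 0.13 for mitochondria-specific large subunit genes, 0.18 for small subunit genes with a bacterial counterpart and 0.03 for mitochondria-specific small subunit genes.

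Knockout and heterozygous cortex were compared directly in the third table, and no member was called in either direction. All genes tested were called higher at 0.917% and lower at 0.953%. No member had an unadjusted p below 0.05 in the authors' deposited table, where the smallest was 0.0505 for Mrps27. The median log2 difference was 0.05, from -0.05 to 0.15, with 47 of 77 members above 0. The 10 members called in KO and not in Het were thus not shown to differ between the mutants.

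The largest differences of KO from Het were those of Mrps27, at 14.3 RPKM in Het and 17.7 in KO, and of Mrpl52, at 88.1 and 107 RPKM. Mrps16, Mrpl23 and Mrps24 followed with log2 differences of 0.27, 0.26 and 0.26. The lowest was Mrps12, at 37.7 and 31.3 RPKM (authors' deposited table, q 0.67). Mrpl55, Mrpl53, Mrps36 and Mrps33 followed, with log2 differences from -0.22 to -0.20. Of the 77 genes, 37 were ordered WT, Het, KO from low to high, 21 had Het highest with KO between, 8 had KO lowest and Het highest, and 11 had another order.

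Of the 12 genes called in KO, 11 were among the 38 members above the median WT level and 1 among the other 39. Median KO differences were 0.24 and 0.10 in these 2 groups. Of all genes tested 6.72% were called higher in KO, and their share at each level was not counted. Genes of low level tend to have fewer reads to reach a call with, and log2(RPKM + 1) understates their changes. The counts therefore do not show that the higher members responded more. Across the 77 members Spearman's rho between the KO difference and mean level was 0.43, and with transcript length it was -0.34. In Het the values were 0.34 and -0.45. They are descriptions across genes of the same libraries, which are not independent replicates, and levels per length depend on length themselves.

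Transcripts of the members were short, with a median of 1223 nt (median over a gene's coding transcripts in GENCODE M21) against 2683 nt for genes of at least 1 RPKM. Of the 39 shorter members 9 were called in KO, with a median of 0.26. Of the 38 longer members 3 were called, with a median of 0.12. Within the members' interquartile range of length, 776 to 1962 nt, 8.17% of 3770 genes tested were called higher in KO and 3.82% of 3795 in Het. The median KO difference of non-members in that range was 0.08, and that of all 77 members 0.18. In the shortest of 10 length bins, below 1008 nt, 7 of 30 members were called in KO, with a median of 0.22, where other genes had 14.7% called higher and a median of 0.14. The part of transcript length in the members' rise was not tested.

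**Figure D3:**
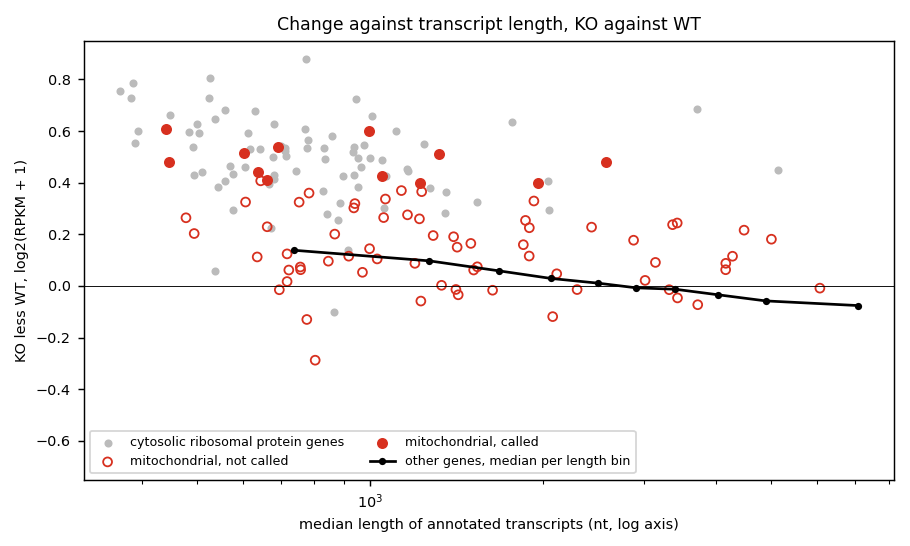
Difference of log2(RPKM + 1) between KO and WT (vertical axis) against transcript length in nt (log horizontal axis) for the 77 mitochondrial ribosomal protein genes in red, filled where called, for cytosolic ribosomal protein genes in grey, and as the median of 10 length bins of all genes other than the 77 in black. The black line falls from 0.14 to -0.08, and the called mitochondrial genes, from 440.5 to 2572 nt, lie above it. Their place above the line follows from their choice as genes called higher in KO.

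Cytosolic ribosomal protein genes build the ribosomes outside mitochondria. Of 78 measured, 65 rose in KO and none fell, a share of 83.3% where that of the mitochondrial genes was 15.6%. The difference between the lists was not tested. Their median KO difference was 0.50 against 0.18, and 5 mitochondrial members reached that median. In Het 31 of 78 rose, 39.7% beside 3.95% of all genes, with a median of 0.31 against 0.14. Cytosolic genes were shorter, at a median of 772.5 nt, and far more abundant per length, at a median of 370 RPKM in WT. Below 1008 nt the counts were 52 of 61 cytosolic genes called in KO with a median of 0.52, and 7 of 30 mitochondrial genes with a median of 0.22. Nuclear genes of the respiratory chain, most of whose products join the mitochondrially made subunits, had 25 of 84 called higher in KO, none lower and a median of 0.27. That is 29.8%, beside 6.72% of all genes. In Het 5 of 83 respiratory chain genes were called higher, 6.02% beside 3.95% of all genes, with a median of 0.18. Their median level in WT was 147 RPKM.

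Other parts of the mitochondrial translation machinery are read against the shares of all genes called higher, 3.95% in Het and 6.72% in KO, at which lists of this size would hold few calls or none. Of 24 assembly factors of the mitochondrial ribosome none was called in Het or KO, with medians of 0.04 and 0.05 and, at an unadjusted p below 0.05, 1 and 2 genes higher and none lower. Of 15 translation factors, among them the elongation factor Tufm at 41.2 RPKM in WT and 46.8 in KO, none was called, with medians of 0.07 and 0.04 and 1 and 0 genes at an unadjusted p below 0.05. Among 15 genes of mitochondrial DNA maintenance and transcription none was called either. At an unadjusted p below 0.05 that list held 1 gene higher in Het, and 1 higher and 1 lower in KO. Ribosomal proteins of mitochondria with other symbols, 7 genes with Mrpl57 counted among them, had 1 rise in KO. It was Chchd1, at 53.2 and 72.8 RPKM (authors' deposited table, q 0.0268), in a list with a median of 0.23.

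Among 20 enzymes that charge mitochondrial transfer RNAs, 2 rose in KO and none fell, 10% of the list beside 6.72% of all genes, a gap of less than 1 gene. Sars2, for serine, went from 5.45 to 8.09 RPKM (authors' deposited table, q 0.0134). Pet112, a subunit of the glutamine amidotransferase, went from 7.52 to 10.1 RPKM (authors' deposited table, q 0.0439). In Het the leucine enzyme Lars2 alone rose, from 140 to 335 RPKM, 2.39-fold (authors' deposited table, q 0.00135). It stood at 153 RPKM in KO, and the direct table called it lower in KO than in Het (authors' deposited table, q 0.00517). No mitochondrial ribosomal protein gene had a change of that size.

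**Figure D4:**
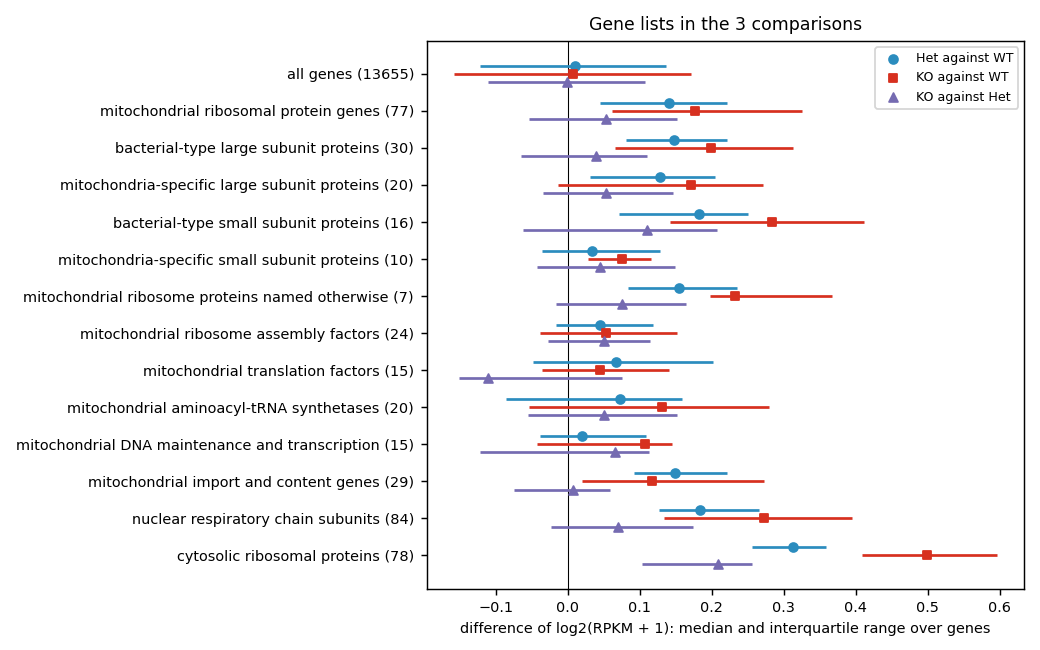
Median (points) and interquartile range over genes (lines) of the difference of log2(RPKM + 1), horizontal axis, for gene lists with the number measured in KO against WT in brackets, in the 3 comparisons. Mitochondrial ribosomal protein genes have medians of 0.14, 0.18 and 0.05, and cytosolic ones 0.31, 0.50 and 0.21.

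Promoters of the members, whether called or not, were searched for motifs of factors known to act on nuclear genes of mitochondria. RefSeq promoter windows (GRCm38.p6, 250 bases before to 50 after a start site) matched 68 of the 77 genes with 74 windows. Searched on both strands were GCGCATGCG, a core of the nuclear respiratory factor NRF1 motif, CCGGAAG, the core bound by the ETS factor GABP, AAGATGGCG for YY1 and GGGCGG for SP1. No match of the NRF1, ETS and YY1 motifs overlapped a match of another of them. The ETS core was in 33.8% of the members' windows, against 15.8% of 13030 windows of genes of at least 1 RPKM and 8.86% of all 32851 windows. The YY1 motif was in 10.8%, against 2.72% and 1.403%. The NRF1 core was in 9.46%, against 3.35% and 1.75%, and SP1 in 52.7%, against 61.9% and 35.7%.

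For each gene called in KO with an ETS or YY1 match, 1 match is printed as 30 bases on the strand of the gene, 5′ to 3′, with the motif in capitals, which reads CTTCCGG where the ETS core lies on the other strand. They lie at chr14:54426851-54426880 (Mrpl52, plus), chr14:20393546-20393575 (Mrps16, minus), chr3:95871478-95871507 (Mrps21, minus), chr5:100798592-100798621 (Mrps18c, plus), chr11:5707652-5707681 (Mrps24, minus) and chr10:95501903-95501932 (Mrpl42, minus). The first 4 show the ETS core and the last 2 the YY1 motif. Mrpl52 and Mrps16 each held another ETS core in the same window, at chr14:54426900-54426929 and chr14:20393448-20393477, which is not printed. The NRF1 cores of Mrpl22 (chr11:58171621-58171650, plus) and Mrpl10 (chr11:97041437-97041466, plus), which were not called, are shown beside them.
Mrpl52: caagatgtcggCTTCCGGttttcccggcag
Mrps16: ttgggggcgctCTTCCGGgcttcaggctct
Mrps21: cgtagcttccgCTTCCGGtccgcagagacc
Mrps18c: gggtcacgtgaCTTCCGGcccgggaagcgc
Mrps24: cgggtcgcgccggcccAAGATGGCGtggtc
Mrpl42: agattgaagcAAGATGGCGagcgcgcggtg
Mrpl22: gcctcggactGCGCATGCGtatagtcagcc
Mrpl10: cccagctccaCGCATGCGCatagcggccct

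The KO differences of members with and without each motif can be set side by side. The 25 members with an ETS core had a median KO difference of 0.18 and 4 calls, and the 43 without it 0.15 and 6 calls. The 8 with a YY1 motif had 0.21 and 2 calls, and the other 60 had 0.15 and 8 calls. The 7 with an NRF1 core, such as Mrpl10 and Mrpl22, had 0.02 and no call, and the other 61 had 0.19 and 10 calls. A match is a string of letters in one window and shows neither binding nor a cause.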

How the data were processed

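The authors deposited 3 pairwise tables, per the file headers with an RPKM for each genotype and, for each gene, a q-value beside its p-value. Per the submitters' processing notes the build was mm9 and the tools included Cuffdiff 2.2.1, TopHat2 2.0.13 and CASAVA 1.4, with roles and annotation not given in the sources used here. Library titles gave the genotypes, and 0 value columns stayed unmapped. No test was run here: calls are the authors' q below 0.05, genes with a p of 1 count as not tested, and the smallest p is 5e-05. Differences are of log2(RPKM + 1), which understates changes of low genes. Each comparison is read within its table, between which a genotype's member values differed by at most 0.687%. The library kit (TruSeq RNA v2) does not mark strand, and exons of 25 members overlap another gene's in GENCODE M21, 4 of them called in KO (Mrpl12, Mrpl13, Mrps7 and Mrps18c). Members and lists were chosen with earlier results of these data known. Named are called members, the 5 largest rises and falls per comparison, the 5 highest and lowest in WT, the Mrps18 family, Mrps36 and up to 4 called genes per other list. Mrpl11, Mrpl15, Mrpl18, Mrpl22, Mrpl45, Mrpl48, Mrpl49 and Tufm are also named, chosen after their values were seen. Of genes of at least 1 RPKM, 99.1% had a length. Values per library, for which a test had been planned, were not found. The scripts were tested on simulated data. Alternatives covered thresholds, pseudocounts, minimum levels and scaling. Software was matplotlib 3.10.9, scipy 1.17.1, pandas 2.3.3, numpy 2.4.6 and Python 3.11.15.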

Additional observations from a re-analysis of the deposited data

How the results depend on the processing

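The median differences of the members kept their sign under all 7 alternatives tried in each comparison, which were a pseudocount of 0.1 or 0.01, no minimum level or 5 RPKM, subtraction of the median of all genes or of genes of like length, and leaving out Mrps36 (added after seeing the data). They ranged from 0.07 to 0.15 in Het against WT, 0.10 to 0.20 in KO against WT and 0.04 to 0.06 in KO against Het, with the lowest value in each after subtraction of the median of genes of like length. Neither minimum level could change a median, because the lowest member stood at 5.59 RPKM in WT and none was removed. Leaving out Mrps36, 1 gene of 77, could shift a median only to a neighbouring value. Counts of called members depended on the threshold by construction. With q below 0.01 the members called higher were 1 in Het and 4 in KO, and with an absolute log2 difference of at least 0.5 also required they were 1 and 5. By size alone, above 0.25 whatever the q, 15 were higher in Het, 27 higher and 1 lower in KO, and 6 higher and 1 lower in KO against Het. Adjustment over the 3 comparisons together left 2 and 12 calls. Either minimum and leaving out Mrps36 could not change these counts, as no member lay below 5 RPKM and Mrps36 was not called. No paired analysis was possible because the tables hold 1 pooled value per genotype, and for the same reason no library could be left out. Depth per library is unknown.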

Other observations

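Genes of mitochondrial protein import and content cover the translocases through which ribosomal proteins enter mitochondria, chaperones, porins and carriers. Of 29 measured, 3 rose in Het and 4 in KO and none fell, with medians of 0.15 and 0.12. These are 10.3% and 13.8% of the list, beside 3.95% and 6.72% of all genes and 3.82% and 8.17% of genes in the length range of the ribosomal protein genes, and the difference was not tested. Timm13, a chaperone of the intermembrane space, stood at 44.4 RPKM in WT, 59.2 in Het and 65.7 in KO (authors' deposited tables, q 0.0121 and 0.000987). The chaperonin gene Hspe1 stood at 97.9, 125 and 129.5 RPKM, and Tomm7 of the outer membrane translocase at 41.4, 53.9 and 54.7, and all 3 genes were called in both mutants in the authors' deposited tables. Timm50, a receptor of the inner membrane translocase, was called in KO only, at 30.9 against 22.6 RPKM, and its difference between KO and Het was not called (authors' deposited table, q 0.834).

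Among 11 regulators of nuclear mitochondrial genes, 1 fell in Het and 1 rose in KO. Each is 9.09% of the list, beside 5.06% of all genes called lower in Het and 6.72% called higher in KO, a gap of less than 1 gene. The coactivator Ppargc1a stood at 10.2 RPKM in WT, 7.96 in Het and 11.1 in KO, lower in Het than in WT (authors' deposited table, q 0.0344). It was higher in KO than in Het (authors' deposited table, q 0.0335). The nuclear receptor Esrra rose in KO from 14.4 to 23.5 RPKM (authors' deposited table, q 0.000987). The medians of this list were 0.01 in both comparisons with WT.

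Mrpl48 stood apart in the authors' p-values. It had 52.7 RPKM in WT and 63.0 in KO, a log2 difference of 0.25 with a p of 0.666 in the authors' deposited table. The 11 other members within 0.05 of that difference had p-values from 0.028 to 0.139. In Het its difference of 0.10 had a p of 0.852 in the authors' deposited table, where 18 members within 0.05 of it had p-values from 0.259 to 0.733. Its exons overlap those of Rab6a on the opposite strand, and the part of that overlap was not tested.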
